A study of Mus musculus with 6 samples.

Results

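Deep-layer cortical projection neuron genes are examined here in RNA-sequencing data from the medial prefrontal cortex, part of the frontal lobe, of mice. The 10 genes were taken by name from the 19943 genes listed in the files: Fezf2, Bcl11b, Etv1, Crym and Npr3 as genes of layer 5, Foxp2, Tle4, Syt6 and Tbr1 as genes of layer 6, and Pcp4 as a gene of both deep layers. All 10 were found in all 6 libraries and all 10 passed the filter on low counts. The libraries came from C57BL/6 mice labelled as 6 weeks old, whereas the text on the design gives 7 weeks. In 3 of them the mice had been socially isolated for 3 weeks from weaning, and 3 were controls whose housing is not described. They are called control 1 to 3 and isolated 1 to 3, after their replicate numbers. The labels do not say whether a library came from 1 animal or from a pool, and name no separate animals, so each p-value reflects only how these libraries differ, which may be technical in part.

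The deep layers of the cortex hold the neurons that send its output. Layer 5 contains neurons that project to the spinal cord, brainstem and striatum, and layer 6 contains neurons that project to the thalamus. Their identities are set by transcription factors that restrain one another during development: FEZF2 and its downstream factor BCL11B (CTIP2) specify subcerebral projection neurons of layer 5, whereas TBR1 specifies corticothalamic neurons of layer 6 and represses the layer 5 programme. In the adult cortex these genes continue to be used as layer markers. Several are not restricted to the cortex. Bcl11b, Foxp2 and Pcp4 are also expressed in the projection neurons of the striatum, the structure beneath the frontal cortex, and Crym is expressed there too.

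Depth was even, with 18226448 to 18606573 expected counts per library (reads assigned to genes, partly by estimation). The general excitatory neuron markers Slc17a7, Neurod6, Neurod2, Emx1 and Camk2a were present in all 6 libraries, with summed levels of 5750 to 7210 CPM (normalized counts relative to library size) in control and 5570 to 6800 CPM in isolated libraries. Libraries of both groups also held RNA of marker genes of striatal projection neurons in unequal amounts, and the cells it came from were not tested. The dopamine receptor gene Drd2 was measured at 19.1, 68.2 and 0.605 CPM in control 1, 2 and 3, and at 6.78, 6.36 and 50.2 CPM in isolated 1, 2 and 3. The 15 striatal markers, Drd2 among them, summed to between 599 and 4660 CPM in control and between 836 and 3370 CPM in isolated libraries. Isl1 was the only one with a count of 0 in any library. Oligodendrocyte markers, 5 in number, summed to between 2450 and 4130 CPM in control and between 3210 and 5920 CPM in isolated libraries. In tissue of mixed cells, a lower share of a cell type and less RNA per cell cannot be told apart, which applies to each level below.

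Promoter windows of Etv1, Tle4 and Pcp4 are shown as examples of genes whose levels varied differently across the libraries: Etv1 separated the groups, whereas Tle4 and Pcp4 were high where Drd2 was high. RefSeq promoter windows on GRCm38.p6 matched 8 of the 10 genes by symbol, all but Crym and Foxp2. Each line gives the 250 bases before the first listed start, read 5′ to 3′ on the gene's strand, with CpG dinucleotides in capitals. The windows lie at chr12:38779832-38780081 on the plus strand for Etv1, chr19:14598184-14598433 on the minus strand for Tle4 and chr16:96467356-96467605 on the plus strand for Pcp4, outside the annotated exons of each gene.
Etv1: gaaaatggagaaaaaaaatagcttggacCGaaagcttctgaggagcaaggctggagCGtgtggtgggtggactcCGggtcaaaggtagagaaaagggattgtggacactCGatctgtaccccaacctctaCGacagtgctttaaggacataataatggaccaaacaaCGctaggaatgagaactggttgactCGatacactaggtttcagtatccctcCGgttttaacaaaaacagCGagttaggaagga
Tle4: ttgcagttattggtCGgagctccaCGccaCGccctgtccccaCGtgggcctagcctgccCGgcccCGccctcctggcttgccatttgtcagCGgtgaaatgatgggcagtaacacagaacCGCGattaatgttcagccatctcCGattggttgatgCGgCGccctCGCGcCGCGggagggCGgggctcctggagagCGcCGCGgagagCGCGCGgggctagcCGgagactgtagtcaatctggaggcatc
Pcp4: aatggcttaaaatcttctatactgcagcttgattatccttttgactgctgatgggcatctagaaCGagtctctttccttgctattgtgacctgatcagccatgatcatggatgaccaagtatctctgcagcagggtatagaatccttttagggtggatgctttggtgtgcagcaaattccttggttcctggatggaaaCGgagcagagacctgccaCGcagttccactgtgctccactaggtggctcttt
The Tle4 window held 24 CpG dinucleotides at 65.2% G and C, that of Etv1 9 at 46.4% and that of Pcp4 3 at 46.8%. The median of all 32851 windows of this length was 6 CpG and 52.4%. Motifs for the families of 3 of the members themselves were searched on both strands in all 12 windows of the 8 genes. The T-box letters AGGTGTGA, the ETS letters CCGGAAGT and the forkhead letters GTAAACA were found in 0 of the 12 windows, against 1.12%, 2.88% and 3.17% of all windows. TATAAA was found in 1 of the 12, the second window of Etv1, against 12.4% of all windows.

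Per unit of transcript length the members spanned a wide range. FPKM, the authors' scaling of counts to gene length and library size, allows levels of different genes to be set side by side. Pcp4, which encodes a small regulator of calmodulin, had the highest mean level at 334 ± 111 FPKM (SD, n = 6). The transcription factor gene Tbr1 followed at 46.7 ± 5.22 FPKM and was above Crym, which encodes a thyroid hormone-binding protein, at 35.3 ± 7.77 FPKM, in all 6 libraries, although their ranges overlapped. Next came a group of 5 genes between 14.3 and 18.3 FPKM whose ranges overlapped: Etv1, Fezf2, Tle4, Bcl11b and Syt6. Neighbours in this group changed places from library to library, so that Fezf2 was above Tle4 in 3 of 6 libraries. Foxp2 at 3.85 ± 1.36 FPKM and Npr3 at 2.18 ± 0.552 FPKM were the lowest, with counts of at least 301 and 170 reads per library. Reads of 3 members may be shared with overlapping genes: 23.7% of the exon bases of Pcp4 overlap Igsf5 on the same strand, 8.67% of those of Syt6 overlap a pseudogene and 3.42% of those of Npr3 a predicted gene, both on the other strand.

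**Figure D1:**
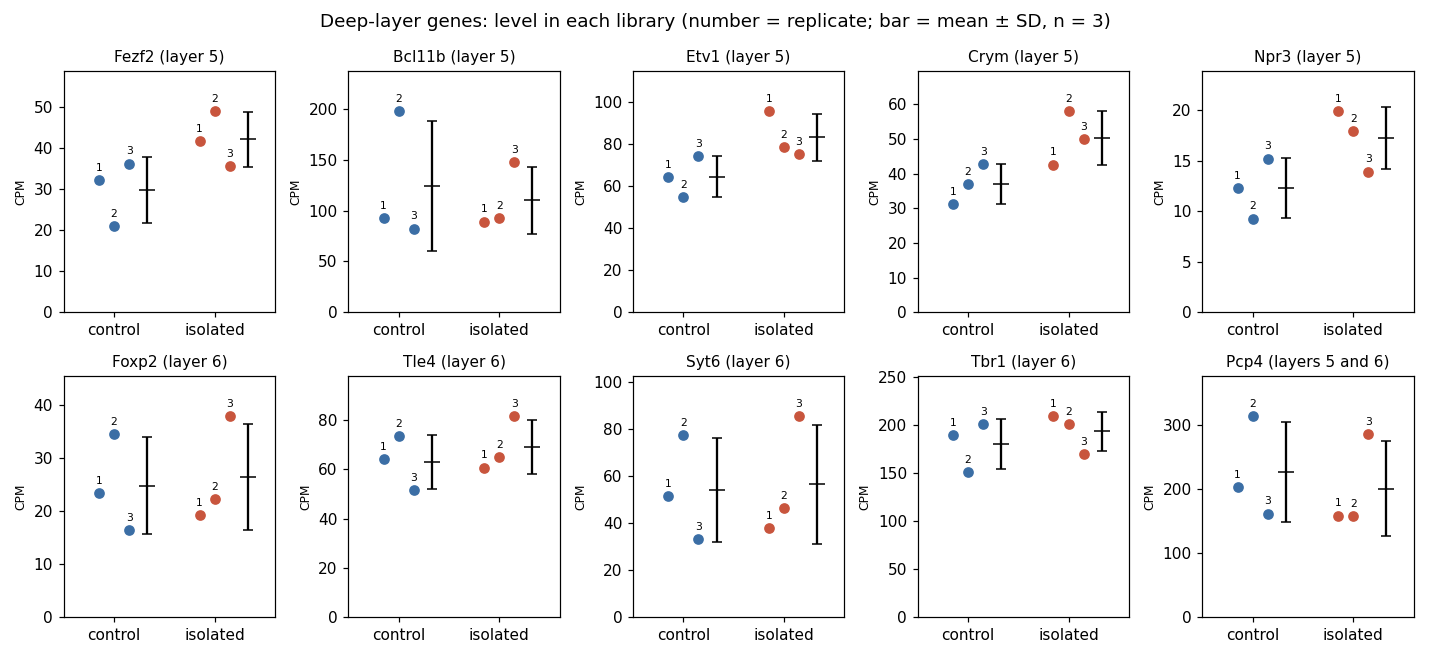
Level of each of the 10 genes in CPM (y axis, from 0) in the 3 control (blue) and 3 isolated (red) libraries, labelled by replicate number, with the group mean ± SD. Fezf2, Etv1, Crym and Npr3 lie higher in isolated libraries with small or no overlap, whereas Bcl11b, Foxp2, Syt6 and Pcp4 are highest in control 2 and isolated 3.

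The first comparison asked whether isolation was accompanied by a different level of these genes. With edgeR's quasi-likelihood test 0 of the 10 members passed at an adjusted p under 0.05, where 0% of the 15169 tested genes passed, and each member had an adjusted p of 0.999. At an unadjusted p under 0.05, 4 of the 10 members were higher in isolated libraries, all of them genes of layer 5, against 1.52% of all tested genes. This count of 4 depended on the libraries in the fit. It was 0 without control 1, and 1 without control 2, isolated 1 or isolated 2 (2.42%, 1.32%, 1.56% and 1.13% of all genes). It stayed at 4 without control 3 or isolated 3 (2.18% and 1.22%). Without control 1 the differences of the 4 genes were between 0.33 and 0.56, with edgeR unadjusted p-values between 0.0571 and 0.0825. Members lower in isolated libraries at an unadjusted p under 0.05 numbered 0, against 2% of all tested genes. Of the 10 members 8 had a log2 difference above 0, as did 49.2% of all tested genes, and their median was 0.12 beside -0.002 for all genes. DESeq2 and limma-voom also passed 0 members, with 0.00659% and 0% of all genes, and gave an unadjusted p under 0.05 to 2.02% and 3.53% of all genes. These shares describe genes that were chosen with earlier results of the same libraries known.

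Among the layer 5 genes, Fezf2 was measured at 32.2, 20.9 and 36.2 CPM in control 1, 2 and 3 and at 41.7, 49 and 35.6 CPM in isolated 1, 2 and 3. The groups overlapped only because isolated 3 was just below control 3. Means were 29.7 ± 7.91 and 42.1 ± 6.72 CPM (SD, n = 3), and log2 levels differed by 0.50 (95% interval 0.03 to 0.97, standard error 0.20, edgeR, unadjusted p = 0.04, adjusted p = 0.999). Fezf2 is annotated at chr14:12338992-12346803 (GRCm38, as for all positions below).

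Npr3 (chr15:11839896-11907837) encodes the clearance receptor that removes natriuretic peptides. It was at 12.3, 9.26 and 15.2 CPM in control and at 19.9, 17.9 and 13.9 CPM in isolated libraries, and here too isolated 3 was the 1 isolated library below the highest control. Its log2 difference was 0.49 (standard error 0.20, edgeR, unadjusted p = 0.037, adjusted p = 0.999). The ETS-family transcription factor gene Etv1 (chr12:38780082-38870483) was at 64.1, 54.8 and 74.4 CPM in control and at 95.7, 78.5 and 75.1 CPM in isolated libraries. It was the only member whose groups did not overlap, with the lowest isolated library just above the highest control. Of all tested genes 4.12% had all isolated libraries above all controls. The log2 difference of Etv1 was 0.37 (standard error 0.13, edgeR, unadjusted p = 0.023, adjusted p = 0.999).

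Crym (chr7:120186380-120201989) was at 31.1, 37.1 and 42.8 CPM in control and at 42.6, 58.1 and 50.1 CPM in isolated libraries. The highest control and the lowest isolated library were nearly level, which again left a narrow overlap. Its log2 difference was 0.44 (95% interval 0.10 to 0.78), and it had the smallest p of the 10 members (edgeR, unadjusted p = 0.0168, adjusted p = 0.999). Bcl11b (chr12:107910403-108004145), the fifth layer 5 gene, did not share this pattern. It was at 92.8, 198 and 82.3 CPM in control and at 89.1, 92.8 and 148 CPM in isolated libraries, so that control 2 and isolated 3 stood above the other 4. Its log2 difference was -0.18 with a 95% interval of -0.99 to 0.63 (edgeR, adjusted p = 0.999).

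The layer 6 genes had differences between 0.07 and 0.14 with wide intervals. Tle4 (chr19:14448072-14598183) encodes a Groucho-type corepressor. It was measured at 64.2, 73.4 and 51.5 CPM in control and at 60.8, 65.2 and 81.6 CPM in isolated libraries, with overlapping groups and a log2 difference of 0.14 (95% interval from -0.21 to 0.48). Syt6 (chr3:103575245-103645567), a synaptotagmin gene of corticothalamic neurons, was at 51.3, 77.3 and 33.2 CPM in control and at 37.9, 46.3 and 85.3 CPM in isolated libraries. The spread of Syt6 within a group, 2.33-fold among controls and 2.25-fold among isolated libraries, was far larger than its group difference of 0.07 in log2 (95% interval from -0.79 to 0.92).

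The forkhead factor gene Foxp2 (chr6:14901349-15441977) was at 23.4, 34.6 and 16.5 CPM in control and at 19.3, 22.3 and 37.9 CPM in isolated libraries, a log2 difference of 0.09 (95% interval from -0.65 to 0.83). Control 2 and isolated 3 were again the 2 highest. Tbr1 (chr2:61802863-61814114) varied least of the 10 members, at 189, 151 and 201 CPM in control and at 209, 201 and 170 CPM in isolated libraries. The variation was 1.38-fold over all 6 libraries, and its log2 difference was 0.10 (95% interval from -0.18 to 0.38). Pcp4 (chr16:96467606-96525793), of both layers, was at 204, 314 and 162 CPM in control and at 159, 158 and 286 CPM in isolated libraries, a log2 difference of -0.17 (95% interval from -0.87 to 0.52). With edgeR these 5 genes had adjusted p-values of 0.999.

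The signs of the smaller differences rested on single libraries. Without isolated 3 the log2 difference was -0.36 for Syt6 and -0.26 for Foxp2, and without control 3 it was -0.19 and -0.13. Without control 2 it was 0.33 for Bcl11b and 0.14 for Pcp4. Fezf2, Etv1, Crym and Npr3 were above 0 in each of 16 alternative settings, with differences between 0.25 and 0.68 and an edgeR, DESeq2 or limma adjusted p of at least 0.595. Without control 2 the difference of Fezf2 was 0.30 and that of Npr3 was 0.33. Without isolated 1 that of Etv1 was 0.25.

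The median log2 difference was 0.44 for the 5 layer 5 genes and 0.10 for the 4 layer 6 genes. The layer 6 median turned to -0.06 without control 3 and to -0.13 without isolated 3, and without control 2 it was 0.34 beside 0.33 for layer 5. To compare the layers within a library, the mean log2 CPM of the layer 6 genes was subtracted from that of the layer 5 genes, which cancels any factor common to both. Its level depends on the lengths of the genes, so only differences between libraries are read. The value was -0.72, -0.96 and -0.19 in control 1, 2 and 3 and -0.15, -0.23 and -0.75 in isolated 1, 2 and 3. Both groups held libraries near the top and near the bottom of this range. The group means were -0.62 ± 0.39 and -0.38 ± 0.32 (SD, n = 3), and the difference of 0.25 was smaller than the spread within either group. Leaving out control 2 gave 0.08 and leaving out control 3 gave 0.47, with the other 4 libraries in between. No p is given for it, because it is a score over chosen genes.

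The second comparison asked how each member moved with Drd2. The level of every tested gene was fitted on the group and on log2 Drd2 together, so that the coefficient gives the change in log2 level for each doubling of Drd2 among libraries of the same group. With edgeR's quasi-likelihood test Syt6, Foxp2 and Tle4 rose with Drd2. These were 3 of 10 members, against 0.903% of all tested genes that rose with Drd2, which include the striatal genes themselves. Members falling with Drd2 at an adjusted p under 0.05 numbered 0, against 0.191% of all tested genes. At an unadjusted p under 0.05 there were 5 members with a positive coefficient and 4 with a negative one, against 8.52% and 6.9% of all tested genes.

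The coefficient of Syt6 was 0.21 (standard error 0.03, edgeR adjusted p = 0.0383), that of Foxp2 was 0.18 (0.03, adjusted p = 0.0431) and that of Tle4 was 0.09 (0.01, adjusted p = 0.0423). Bcl11b and Pcp4, which missed the threshold, had coefficients of 0.18 and 0.16 (edgeR adjusted p = 0.0891 and 0.0604). Of the 4 members known also from the striatum, Bcl11b, Foxp2, Pcp4 and Crym, the first 3 had positive coefficients and Crym had one of -0.04 (95% interval from -0.11 to 0.03). Syt6, with the largest coefficient of the 10, and Tle4 were not among these 4, and whether they are expressed in the striatum was not tested.

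The remaining members had negative coefficients. They were -0.11 for Npr3 and -0.10 for Fezf2, with standard errors of 0.02 and 0.03 (edgeR adjusted p = 0.0829 and 0.137). Etv1 and Tbr1 both had -0.06, with standard errors of 0.02 (edgeR adjusted p = 0.164 and 0.143). The 2 directions crossed the layers. Layer 5 held 1 positive and 4 negative coefficients, and layer 6 held 3 positive and, with Tbr1, 1 negative. The general excitatory markers had negative coefficients in 5 of 5 genes, with a median of -0.06. Oligodendrocyte markers had positive ones in 5 of 5 genes (median 0.115, 0 past the threshold). Markers of the claustrum had positive ones in 4 of 5 (median 0.056, 0 past the threshold). The summed oligodendrocyte markers did not follow Drd2 in every library. Isolated 3 had the highest sum, at 5920 CPM, whereas control 2, with the most Drd2, was at 2930 CPM, below control 1 at 4130 CPM. The part of oligodendrocyte RNA in the coefficients of the members was not tested.

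These calls depended on the libraries in the fit. With control 2 left out 0 members passed the edgeR threshold (1.21% of all genes), and the same count of 0 was found on leaving out isolated 1 (0.176%), isolated 2 (0.124%) or isolated 3 (0.32%). In these 4 fits the coefficients were between 0.18 and 0.21 for Syt6, 0.15 and 0.18 for Foxp2 and 0.08 and 0.09 for Tle4. With control 1 left out 8 members passed (6.44% of all genes). With control 3 left out Syt6, Foxp2 and Pcp4 passed and Tle4 did not (1.39%). DESeq2 passed 5 members (2.72% of all genes), a fit with the replicate number as a block 6 (4.05%), one without the low-count filter 4 (1.07%) and one without the group term 2 (0.771%). The signs were steadier: of 110 coefficients over 11 alternatives, 109 kept their sign, and the exception was Crym without control 3, at 0.02. Drd2 had 11 counts in control 3, and without that library several coefficients were larger in size, at 0.34 for Syt6, 0.30 for Foxp2, 0.32 for Bcl11b, 0.30 for Pcp4, -0.17 for Npr3 and -0.17 for Fezf2. The mean level of the 15 striatal markers in place of Drd2 gave 8 of 10 members past the threshold, all but Etv1 and Crym, where 4.03% of all tested genes passed.

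**Figure D2:**
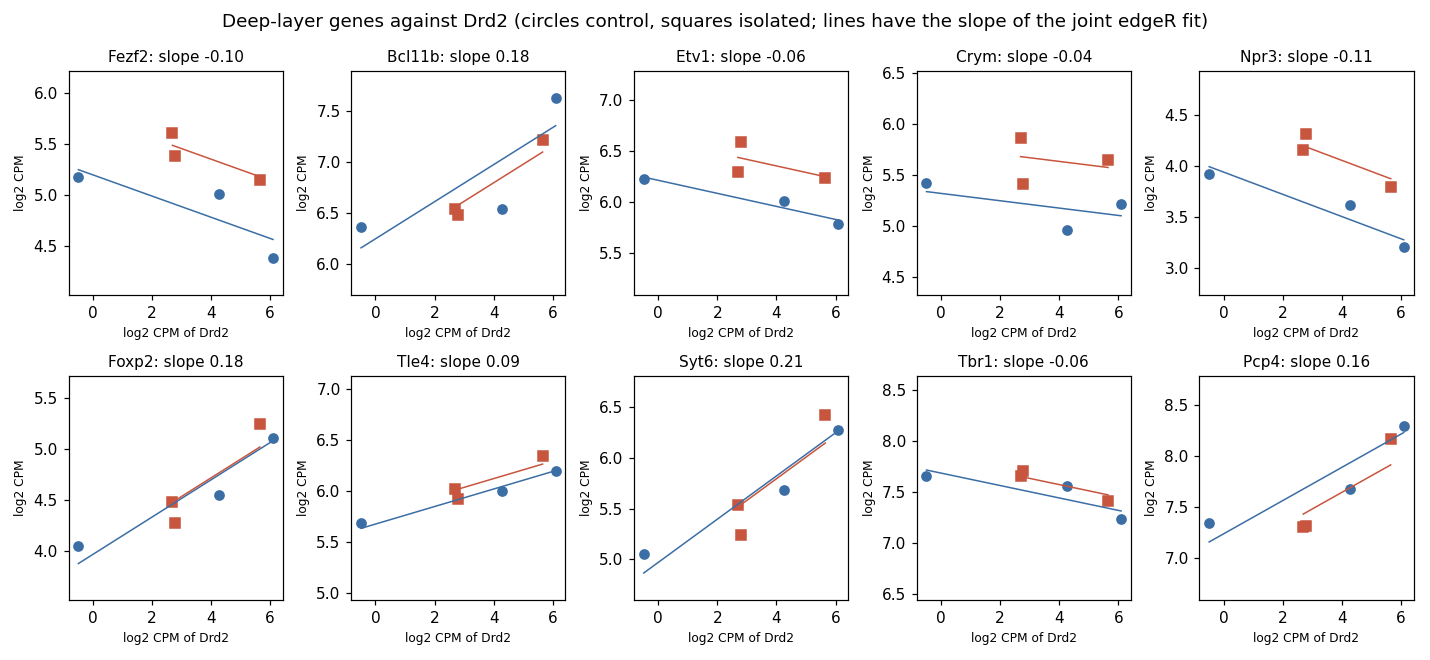
Log2 CPM of each gene (y axis, the same span in each panel) against log2 CPM of Drd2 (x axis) in 3 control (blue circles) and 3 isolated (red squares) libraries. Lines have the coefficient of the edgeR fit on both groups; they slope upward for Bcl11b, Foxp2, Tle4, Syt6 and Pcp4 and downward for Fezf2, Etv1, Npr3 and Tbr1, with the isolated points above the control line for Fezf2, Etv1, Crym and Npr3.

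A ratio of 2 members makes the same pattern visible in a single library. The ratio of Fezf2 to Syt6 in FPKM was 1.79 in control 3, 1.85 in isolated 1 and 1.81 in isolated 2, the 3 libraries with the least Drd2. It was 1.03 in control 1, 0.695 in isolated 3 and 0.462 in control 2, in the order of increasing Drd2. Tbr1 to Foxp2, a pair within layer 6, ran from 20.3 in control 3 to 7.22 in control 2, with 7.47 in isolated 3. In both ratios the 3 libraries with the least Drd2, 1 control and 2 isolated, had the 3 highest values.

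**Figure D3:**
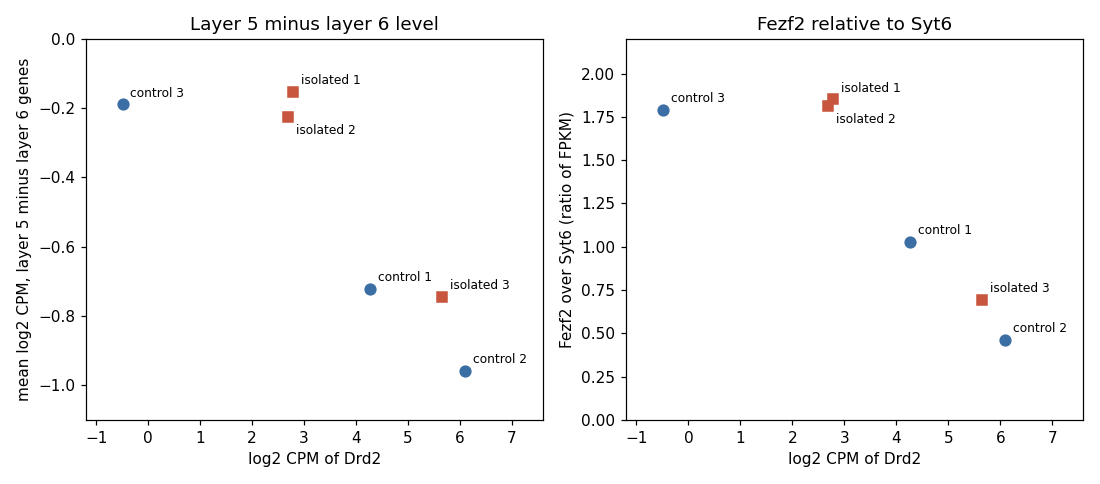
Mean log2 CPM of the layer 5 genes minus that of the layer 6 genes (left) and the FPKM ratio of Fezf2 to Syt6 (right, from 0) against log2 CPM of Drd2, 1 point per library, circles control and squares isolated. Control 3, isolated 1 and isolated 2 lie high in both panels and control 2 lies lowest, at -0.96 and 0.462.

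The 4 layer 5 genes with an unadjusted p under 0.05 were looked at again with log2 Drd2 in the fit. Their differences between isolated and control libraries were as large as without it. They were 0.56 for Fezf2, 0.55 for Npr3, 0.40 for Etv1 and 0.46 for Crym, and the standard errors of Fezf2 and Npr3 went from 0.20 without the covariate to 0.12 and 0.10 with it. Unadjusted p-values were 0.00169, 0.000696, 0.00125 and 0.0086, and edgeR adjusted p-values were 0.595, 0.595, 0.595 and 0.708, so that none passed. Small p-values were commoner among all tested genes too: 2.76% were higher at an unadjusted p under 0.05 with the covariate, against 1.52% without it. Without both control 2 and isolated 3, the 2 libraries with the most Drd2, the differences of the 4 genes were 0.41, 0.46, 0.33 and 0.45 in the same order. For Bcl11b, the fifth layer 5 gene, the difference was -0.21 with the covariate (95% interval from -0.635 to 0.214) and -0.18 without it. For Syt6 the difference with the covariate was -0.00 (95% interval from -0.35 to 0.35) and for Tle4 it was 0.11 (95% interval from -0.04 to 0.25). Markers of other cells also differed in mean between the groups, with 0 genes past the edgeR threshold. Oligodendrocyte markers were higher in mean in isolated libraries in 5 of 5 genes, with a median log2 difference of 0.44, where 49.2% of all tested genes were higher. Their sums were 4130, 2930 and 2450 CPM in control 1, 2 and 3 and 3210, 3450 and 5920 CPM in isolated 1, 2 and 3. Control 1 was thus above isolated 1 and isolated 2, and isolated 3 was the highest. Striatal markers were lower in mean in 15 of 15 genes, with a median of -0.44, where 7707 of 15169 tested genes were lower. Drd2 is itself among the 15, so its own rise with Drd2 was fixed in advance. All 15 rose with Drd2 at an edgeR adjusted p under 0.05, so they are not 15 separate observations. Their sums were 1570, 4660 and 599 CPM in control 1, 2 and 3 and 845, 836 and 3370 CPM in isolated 1, 2 and 3. The groups thus overlapped, and the edgeR log2 difference of Drd2 was -0.47 (95% interval from -3.258 to 2.315). Markers of the claustrum, the thin sheet of neurons beside the deep cortical layers, were lower in 5 of 5 genes, with a median of -0.56 and summed levels of 285 to 399 CPM in control and 280 to 291 CPM in isolated libraries. The 2 with an unadjusted p under 0.05 were Ntng2 and Nr4a2 (edgeR, unadjusted p = 0.00195 and 0.0177, adjusted p = 0.999 for both). Of 3 tested olfactory bulb markers 1 was higher and 2 were lower. Control 2 stood out for Cdhr1 only, which was at 17.7 CPM there and between 1.95 and 2.72 CPM in the other libraries. Sp8 was lowest in control 2, at 1.14 CPM, and Doc2g was at 4.47 CPM there and at 4.49 CPM in control 1. The listed markers summed to 24.1 CPM in control 2, of which Cdhr1 gave 17.7 CPM, and to between 7.92 and 13.2 CPM in the others. The part of the oligodendrocyte, claustrum and olfactory bulb markers in the differences of the members was not tested.

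**Figure D4:**
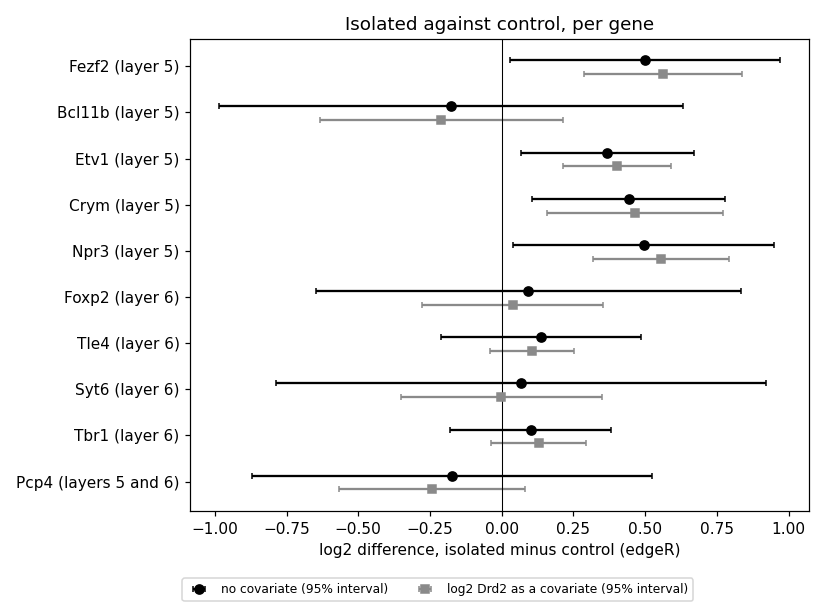
Log2 difference between isolated and control libraries (x axis) for each gene with its 95% interval, from the edgeR fit without a covariate (black circles) and with log2 Drd2 as a covariate (grey squares). The intervals of Fezf2, Etv1, Crym and Npr3 lie above 0 in both fits and those of the other 6 genes cross 0, while no adjusted p passed.

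Further genes of the same layers were taken from lists made for this comparison. Of 13 further layer 5 genes 12 were tested, 8 were higher and 4 were lower in isolated libraries, and 0 passed the edgeR threshold. Their median log2 difference was 0.05. The 2 that were higher at an unadjusted p under 0.05, against 1.52% of all tested genes, were Sulf2, an extracellular sulfatase gene, at 123 ± 28.5 and 167 ± 7.77 CPM (log2 difference 0.44, edgeR adjusted p = 0.999), and Rbp4, a retinol-binding protein gene, at 9.28 ± 1.37 and 11.9 ± 0.846 CPM (0.36). Both had all isolated libraries above all controls, as did 4.12% of all tested genes. On the lower side, the steroid reductase gene Hsd11b1 differed by -0.16 and Parm1 by -0.06.

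Of 14 further genes of layers 6 and 6b 10 were higher and 4 were lower, with a median of 0.09 and 0 past the edgeR threshold. Zfpm2, a cofactor of GATA factors, was at 18.2 ± 4.88 and 24.9 ± 2.26 CPM (log2 difference 0.45, unadjusted p = 0.041, edgeR adjusted p = 0.999). Sla differed by 0.38, Thsd7b by -0.12 and Osr1 by -0.08. In the fit with Drd2, 12 of the 14 had a positive coefficient. The 2 that passed were markers of layer 6b, the thin sheet above the white matter: Ctgf, a matrix-associated signalling gene, with 0.19, and Nxph4, which encodes a secreted neurexin ligand, with 0.20 (edgeR adjusted p = 0.0313 and 0.0423). Ctgf was at 14.8 CPM in control 3 and between 32.1 and 44 CPM in the other 5 libraries, and Nxph4 was also lowest in control 3. Of the 6 fits with a library left out Ctgf passed in 2 and Nxph4 in 1, and neither passed without control 3 or any isolated library. The coefficient of Ctgf was 0.10 without control 3 and between 0.18 and 0.22 in the other 5 fits. Ctgf and Nxph4 were named because they passed, outside the naming rule.

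Among 18 regulators of projection neuron identity outside the members, 6 were higher and 12 lower in isolated libraries, with a median of -0.04. The orphan nuclear receptor gene Nr2f2 was at 12.7 ± 3 and 8.63 ± 0.172 CPM (log2 difference -0.56, unadjusted p = 0.00942, edgeR adjusted p = 0.999) and had all isolated libraries below all controls, as did 4.73% of all tested genes. Pou3f3 differed by -0.13, Ldb2 by 0.34 and Neurod6 by 0.27. In this list 3 genes fell with Drd2: the LIM-domain partner Ldb2, the excitatory neuron factor Neurod6 and the LIM-only gene Lmo4, with coefficients of -0.11, -0.11 and -0.09 (edgeR adjusted p = 0.0154, 0.0361 and 0.0431). Ldb2 and Neurod6 passed in 2 and Lmo4 in 1 of the 6 fits with a library left out. Lmo4 was named after its values were seen.

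Of 21 relatives of the members 17 were tested, 6 were higher and 11 lower, and 0 passed. Etv5, a close relative of Etv1, differed by 0.20, and Nppc, whose peptide product is cleared by NPR3, by 0.20. Tle1 and Aes, relatives of Tle4, differed by -0.11 and -0.07. Pcp4l1, the relative of Pcp4, rose with Drd2 with a coefficient of 0.30 (edgeR adjusted p = 0.0209). It passed in 2 of the 6 fits with a library left out, and it was named after its values were seen.

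Of 14 genes of the upper layers, whose neurons project mainly within the cortex, 3 were higher and 11 lower in isolated libraries, with a median of -0.23 and 0 past the edgeR threshold. At an unadjusted p under 0.05 there were 5, all lower, against 2% of all tested genes: Kitl (-0.22), Rorb (-0.46), Cux1 (-0.29), Calb1 (-0.23) and Pvrl3 (-0.31), the last 3 of which were named after their values were seen. Cdh24 and Lamp5 differed by 0.14 and 0.11. In the fit with Drd2 7 of the 14 had a positive and 7 a negative coefficient, and 0 passed.

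The genes most like Fezf2 over the 6 libraries were found by the root mean square difference of log2 CPM, each gene centred on its own mean, among 10006 genes with a mean of at least 10 CPM. They were the collagen gene Col12a1 (0.08), the layer 5 gene Sulf2 (0.12) and Dkk3 (0.12), against a median of 0.39 for all genes compared. Col12a1 was at 22.1, 15.7 and 29.6 CPM in control and at 29.4, 35.7 and 27.3 CPM in isolated libraries. Npr3 was the fifth nearest gene, Etv1 stood at rank 60 and Crym at rank 451, whereas Bcl11b, also of layer 5, stood at rank 9926. The layer 6 gene Tbr1, at rank 162, was nearer than Crym, and the other layer 6 genes stood at rank 9201 or beyond. The genes most like Tle4 were Svil, Nup93 and Crocc, at 0.05, 0.05 and 0.06 against a median of 0.23. These are descriptions over 6 libraries, given without a test.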

How the data were processed

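RNA of the medial prefrontal cortex was read in 50-base reads on the BGISEQ-500 platform (per the labels' protocols). Each table deposited by the authors holds an expected count and an FPKM value for every gene (per the file headers). The submitters' processing notes list HISAT, Bowtie2, RSEM and mm10, with no settings. Strand use in counting was not given in the sources used here. The 6 columns of a further FPKM table carry codes that no label gives and were not used. A gene that a table does not list was taken as 0, and 1 entry per table without a gene identifier, at most 0.000947% of the counts, was left out.

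Rounded expected counts entered edgeR 4.0.16 (R 4.3.3) over the 15169 genes kept by filterByExpr (minimum count 10, minimum total 15), with TMM factors between 0.991 and 1.012 and Benjamini-Hochberg adjustment over all tested genes (threshold 0.05). The second fit added log2 CPM of Drd2 (prior count 2). A standard error is the log2 value divided by the root of F. DESeq2 1.42.0 and limma 3.58.1, other scalings, filters and FPKM with pseudocounts of 1 and 0.1, left-out libraries and a replicate block were alternatives. The fits were tested on simulated data. Depths between 18226448 and 18606573 counts limit the precision of low genes, and no library pair of a group differed by as little as counting noise (chi-square per gene at least 2.89). Members and lists were chosen with earlier results of these data known. The text names all members, the 2 genes with the smallest p in each direction of each further list, and the 3 genes most like Fezf2 and Tle4.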

Additional observations from a re-analysis of the deposited data

How the results depend on the processing

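In the comparison of isolated with control libraries, 0 members and 0 further genes of layers 5 and 6 passed as reported and in each of 16 alternatives, with DESeq2, limma and edgeR. At an unadjusted p under 0.05 DESeq2 found 306 of all genes and limma-voom 536, and DESeq2 called 1 gene of all, which is no member. The count of members at an unadjusted p under 0.05 was 2 with the replicate block, against 4. Of 160 differences of the members under these alternatives, 149 kept their sign. The reversals were Syt6 with log2 Drd2 as a covariate (-0.002) and without both control 2 and isolated 3 (-0.007), where Bcl11b was at 0.055, and those with a library left out: without control 2 Bcl11b (0.33), Tbr1 (-0.01) and Pcp4 (0.137), without control 3 Foxp2 (-0.13) and Syt6 (-0.186), and without isolated 3 Foxp2 (-0.259), Tle4 (-0.001) and Syt6 (-0.36). Over these fits the differences ran from -0.453 to 0.33 for Bcl11b, -0.259 to 0.408 for Foxp2, -0.001 to 0.261 for Tle4, -0.36 to 0.421 for Syt6, -0.01 to 0.186 for Tbr1 and -0.517 to 0.137 for Pcp4. The cause was not tested. The median layer 5 difference was between 0.329 and 0.561 with 1 library left out, and 0.35 on log2(FPKM + 1) with and without the filter, a pseudocount that understates the difference of Npr3. The median layer 6 difference was between -0.13 and 0.335, and the layer 5 minus layer 6 difference between 0.08 and 0.465.

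Members past the threshold for the Drd2 coefficient numbered 8 with the striatal mean, 5 with DESeq2 and 6 with the replicate block, against 3 as reported, and between 0 and 8 with 1 library left out. The only reversed coefficient was that of Crym without control 3 (0.024), with a range over left-out libraries from -0.064. Whether the replicate numbers pair the samples is not given by the labels. Deviations of same-numbered libraries correlated at 0.059, -0.446 and -0.725, and those of control 2 and isolated 3, both high in Drd2, at 0.627. These values cannot decide on pairing, because the unequal Drd2 of the libraries could hide it. The block left the layer 5 minus layer 6 difference at 0.248 and the members called between groups at 0. Npr3 had the fewest counts, between 170 and 367 per library.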
